A study of Caenorhabditis elegans with 6 samples.

Results

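The genes described are those of the F-box families fbxa, fbxb, and fbxc in *C. elegans*, chosen as every gene whose symbol in the deposited tables starts with fbxa-, fbxb-, or fbxc-. The files listed 278 of them (140 fbxa, 95 fbxb, and 43 fbxc) among 17399 genes in all. RNA-seq was run on whole N2 worms, the wild-type strain, that were kept as adults for 7 days at 20°C on NGM agar plates and moved to new plates each day. The plates held 0.1 μM VK2 (vitamin K2, a menaquinone) for the VK2 group and no VK2 for the control group, and worms of both groups had the N2 genotype, with no transgene or mutation given in the labels. There were 3 VK2 libraries (T1, T2, and T3) and 3 control libraries (C1, C2, and C3). Nothing in the labels says that the libraries of a group came from separate cultures, so p-values measure the spread between these libraries, which may be technical. RNA levels are given as FPKM, fragments adjusted for transcript length and for how many fragments of a library mapped, summed over the transcripts of each gene.

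An F-box protein is the part of an SCF ubiquitin ligase that chooses the target. Its F-box motif binds a Skp1-related adaptor (an SKR protein in worms), the adaptor binds a cullin, and the cullin holds a RING protein that brings in the enzyme carrying ubiquitin. *C. elegans* has many more F-box genes than most animals, mostly in tandem groups on the chromosomes, and for most of them no target is known. FBXA-75 and FBXA-158 are exceptions in that they are known to work with the cullin CUL-6, the adaptors SKR-3, SKR-4, and SKR-5, and the RING protein RCS-1 in a ligase made during the intracellular pathogen response, a program of worms infected by viruses or microsporidia or under proteasome stress.

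The libraries were deposited in 2 tables, the first with T1 and C1 and the second with T2, T3, C2, and C3. FPKM summed to between 654910 and 686279 per library in the first table and between 369349 and 396004 in the second, so levels were not compared between tables. Of the 278 F-box genes, 224 stood in both tables, 43 in the first table only, and 11 in the second only. The comparison of VK2-treated with control worms used the 176 (100 fbxa, 48 fbxb, and 28 fbxc) that averaged 1 FPKM or more across all 6 libraries, and the other 48 were under that level. The nearest members inside it were *fbxa-164*, with a mean of 1.001 FPKM, and *fbxb-119*, with a mean of 1.001 FPKM. The nearest outside it was *fbxb-38*, with a mean of 0.999 FPKM. This mean pooled the 2 tables, although FPKM sums were higher in the first. Every tested fbxb gene had at least 1.395 FPKM in T1 and 1.314 FPKM in C1. A gene under 1 FPKM in the second table could thus pass through the first. Across all 14191 genes tested, the control C3 stood apart from the other libraries of its table. Between T2 and T3 the log2 difference had an SD of 0.292 over genes, and between C2 and C3 one of 0.695. Oocyte markers, 10 genes for yolk uptake, the eggshell, and oocyte RNA-binding proteins, summed to 2993, 1193, and 1232 FPKM in T1, T2, and T3, and to 3085, 1543, and 522.5 FPKM in C1, C2, and C3, and all 10 were at least 1.5 times lower in C3 than in T2, T3, and C2. Markers of intestine, body wall muscle, neurons, epidermis, germ line, and sperm were also found in the whole-worm RNA, with none of those listed at 0. In RNA from whole worms, fewer cells of a type and less RNA per cell cannot be told apart.

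In the first table the fbxc genes had the highest median level and the fbxb genes the lowest. The median FPKM of the tested fbxc genes was 7.77 in T1 and 8.04 in C1, that of the fbxa genes 3.39 in T1 and 3.67 in C1, and that of the fbxb genes 2.43 in T1 and 3.07 in C1. For comparison, the median of all genes tested was 17.04 FPKM in T1 and 16.45 FPKM in C1, so these families were low in both libraries. In the second table, the median of the fbxa genes was 2.38 and 2.08 FPKM in T2 and T3 and 2.18 and 3.26 FPKM in C2 and C3. The median of the fbxb genes was 0.831 and 1.09 FPKM in T2 and T3 and 1.24 and 0.192 FPKM in C2 and C3. The median of the fbxc genes was 2.17 and 2.19 FPKM in T2 and T3 and 2.82 and 1.79 FPKM in C2 and C3. By the median, the 2 libraries of VK2-treated worms thus lay between the 2 control libraries in the fbxb and fbxc families. T2 did so in the fbxa family too, where T3 was the lowest. Gene by gene, both T2 and T3 lay above C3 and below C2 in 15 of the 28 fbxc genes, so this order did not hold throughout that family.

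**Figure D1:**
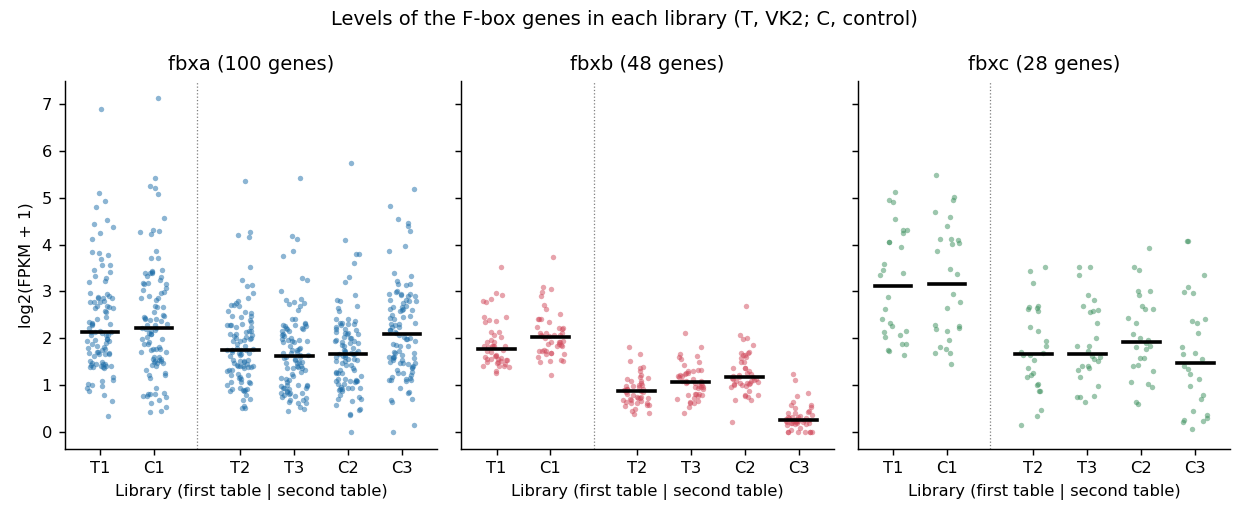
Level of each tested F-box gene as log2(FPKM + 1) (y axis) in each library (x axis), with fbxa, fbxb, and fbxc genes in a panel each, 1 point per gene, and a black line at the median. A dotted line parts the first table (T1, C1) from the second (T2, T3, C2, C3), and the 48 fbxb genes sit lowest in C3, at a median of 0.192 FPKM.

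The 6 members with the highest mean FPKM varied in which library stood highest. *fbxa-215* had the highest mean level of the 3 families, with 118, 40.2, and 42.1 FPKM in T1, T2, and T3 and 139, 52.8, and 20.2 FPKM in C1, C2, and C3. *fbxa-60* had 22.2, 17.5, and 16.3 FPKM in T1, T2, and T3 and 37.1, 16.1, and 22.5 FPKM in C1, C2, and C3. *fbxa-24* had 18.1, 18.3, and 13.6 FPKM in T1, T2, and T3 and 17.7, 12.9, and 35.6 FPKM in C1, C2, and C3. In each of these 3 genes the VK2 and control libraries of the second table overlapped, and C3 was the library farthest from the others. *fbxc-44* had 33.6, 8.13, and 9.25 FPKM in T1, T2, and T3 and 43.9, 10.04, and 4.19 FPKM in C1, C2, and C3. *fbxa-210* had 29.3, 10.5, and 12.6 FPKM in T1, T2, and T3 and 36.2, 11.2, and 7.92 FPKM in C1, C2, and C3. *fbxa-101* had 33.1, 8.52, and 8.73 FPKM in T1, T2, and T3 and 41.7, 8.18, and 7.02 FPKM in C1, C2, and C3. T1 was below C1 in 5 of these 6 genes, with *fbxa-24* as the exception, and the fitted differences of the 6 between VK2-treated and control worms ran from -0.35 in *fbxa-60* to 0.13 in *fbxa-215* on the log2(FPKM + 1) scale. Without C3 the direction turned in 5 of the 6, at -0.30 for *fbxa-215*, 0.17 for *fbxa-24*, -0.27 for *fbxc-44*, -0.10 for *fbxa-210*, and -0.10 for *fbxa-101*, and *fbxa-60* was at -0.27.

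The effect of VK2 was tested with limma on log2(FPKM + 1), with a term for the table and Benjamini-Hochberg adjustment over all genes tested. Adding 1 makes the differences of low genes smaller than their true fold changes. None of the 176 F-box genes passed this test, which does not show that their levels were the same in VK2-treated and control worms. The count at an adjusted p below 0.05 was 0 of 176, where 0.0% of all genes tested passed, and the smallest adjusted p was 0.9996. At an unadjusted p below 0.05 the count was also 0 of 176, where 3.57% of all genes tested passed, and the smallest unadjusted p from limma was 0.0519, for *fbxa-99*. The fitted difference was above 0 for 83 genes and below 0 for 93 (median -0.02, against 0.02 for all genes tested). Its standard error had a median of 0.27 over the F-box genes and 0.20 over all genes tested. By family, the median difference was -0.08 for fbxa genes (36 higher and 64 lower), 0.09 for fbxb genes (33 higher and 15 lower), and 0.00069 for fbxc genes (14 higher and 14 lower). With quantile normalization within each table, 52 of the 176 genes were higher and 124 lower, and the fbxb median turned to -0.08, so no direction is given for this family.

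No F-box gene was higher by 1.5 times in the fitted difference, where 3.33% of all genes tested were, and 4 (2.27%) were lower by as much, where 1.68% were. These 4 were *fbxa-158*, *fbxa-163*, *fbxa-182*, and *fbxc-4*, of which *fbxa-163* and *fbxa-182* were named after their values were seen. *fbxa-158* reached the mean level of 1 FPKM only because of C3, so its place among the 4 follows from the filter. *fbxa-163* had 2.49, 1.66, and 1.18 FPKM in T1, T2, and T3 and 1.88, 0.407, and 27.5 FPKM in C1, C2, and C3 (log2 difference -0.84 ± 1.02, SE). *fbxa-182* had 5.85, 5.77, and 3.799 FPKM in T1, T2, and T3 and 9.78, 3.96, and 20.95 FPKM in C1, C2, and C3 (log2 difference -0.80 ± 0.51, SE). *fbxc-4* had 9.99, 2.26, and 1.93 FPKM in T1, T2, and T3 and 10.2, 2.71, and 7.51 FPKM in C1, C2, and C3 (log2 difference -0.59 ± 0.35, SE). In all 4 genes C3 was the highest library of the second table, and in *fbxa-163* the VK2 library T1 was above C1 and both T2 and T3 were above C2. Without C3, the differences were 0.56 for *fbxa-163*, -0.16 for *fbxa-182*, and -0.16 for *fbxc-4*. Without C3, 1 F-box gene (0.568%) was higher by 1.5 times, where 2.5% of all genes were, and 2 (1.14%) were lower, where 0.684% were, and 9 (5.11%) had an unadjusted p below 0.05 in limma, where 7.21% of all genes did. Without C2, 7 (3.98%) were higher, where 7.73% of all genes were, 22 (12.5%) were lower, where 4.73% were, and 14 (7.95%) had such a p, where 11.2% did. No F-box gene passed an adjusted p of 0.05 in limma in either case (smallest 0.681 without C3 and 0.331 without C2).

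The 2 members known to work with CUL-6 were high in C3 and low in every other library that listed them. *fbxa-158* had 0.267, 1.86, and 0.907 FPKM in T1, T2, and T3 and 0.759, 0.841, and 14.6 FPKM in C1, C2, and C3. Its fitted difference was -0.96 ± 0.72 (SE), with an unadjusted p of 0.228 and an adjusted p of 0.9996 from limma, and it was -0.0069 without C3 and -1.77 without C2. *fbxa-75*, which only the second table listed, had 0.190 FPKM in T2, was listed at 0 in T3, and had 0.179 FPKM in C2 and 14.6 FPKM in C3. In *fbxa-158* T2 was above C2 and T3 close to it, and in *fbxa-75* T2 was close to C2 and T3 below it.

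**Figure D2:**
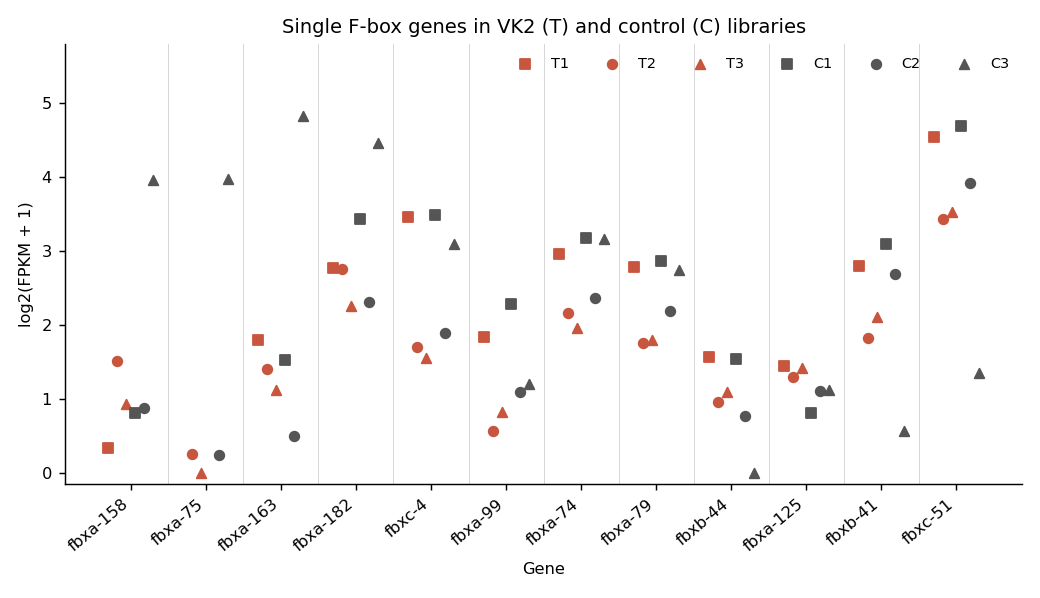
Level of 12 single F-box genes as log2(FPKM + 1) (y axis) in each library, with VK2 libraries (T) in red to the left of control libraries (C) in grey, and libraries 1, 2, and 3 as squares, circles, and triangles. *fbxa-75* has no T1 or C1 value, and C3 (grey triangle) is at 14.6 FPKM in *fbxa-158* and *fbxa-75* and at 27.5 FPKM in *fbxa-163*.

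Few members kept the VK2 and control libraries apart in both tables. In the second table, T2 and T3 were both above C2 and C3 in 13 F-box genes (7.39%), where 11% of all genes tested were, and both below in 22 (12.5%), where 13.9% were. With the first table on the same side, 8 (4.55%) were higher in all VK2 libraries than in the controls of their table, where 6.83% of all genes were, and 11 (6.25%) were lower, where 5.98% were. These shares were near those of all genes. In the first table alone, T1 was at least 1.5 times above C1 in 9 F-box genes (5.11%), where 9.48% of all genes were, and at least 1.5 times below in 8 (4.55%), where 3.52% were.

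The 8 members with VK2 libraries above controls in both tables were *fbxb-44*, *fbxa-125*, *fbxa-153*, *fbxa-61*, *fbxa-95*, *fbxc-20*, *fbxa-38*, and *fbxa-13*, and they were chosen for this separation, which is therefore no result. *fbxa-125* had 1.73, 1.46, and 1.66 FPKM in T1, T2, and T3 and 0.7505, 1.15, and 1.17 FPKM in C1, C2, and C3 (log2 difference 0.38 ± 0.20, SE). *fbxb-44* had 1.97, 0.950, and 1.14 FPKM in T1, T2, and T3, and 1.92 and 0.705 FPKM in C1 and C2, and it was listed at 0 in C3 (log2 difference 0.44 ± 0.28, SE). T1 and C1 were close in *fbxb-44* and far apart in *fbxa-125*, and without C3 the difference of *fbxb-44* was 0.16 and that of *fbxa-153* was 0.21. *fbxa-153* had 6.21, 2.21, and 2.79 FPKM in T1, T2, and T3 and 5.40, 1.96, and 1.21 FPKM in C1, C2, and C3 (log2 difference 0.35 ± 0.21, SE). *fbxa-61* had 2.83, 5.50, and 7.08 FPKM in T1, T2, and T3 and 2.70, 3.324, and 5.35 FPKM in C1, C2, and C3 (log2 difference 0.33 ± 0.23, SE). The differences of *fbxa-95*, *fbxc-20*, *fbxa-38*, and *fbxa-13* were between 0.17 and 0.29. Without C2, *fbxa-61* was at 0.13 and *fbxc-20* at 0.09. Unadjusted p from limma over the 8 genes was between 0.102 and 0.406. Exons of *fbxc-20* overlap those of the gene F42G2.7 on the same strand, so reads of the 2 genes may be shared.

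Of the 11 members with VK2 libraries below controls in both tables, the 8 with the largest differences were *fbxc-4*, *fbxa-74*, *fbxc-2*, *fbxa-79*, *fbxa-99*, *fbxa-11*, *fbxa-65*, and *fbxa-167*, chosen in the same way. *fbxa-99* had 2.57, 0.480, and 0.770 FPKM in T1, T2, and T3 and 3.891, 1.13, and 1.31 FPKM in C1, C2, and C3 (log2 difference -0.45 ± 0.19, SE). Its T1 to C1 difference was -0.45 and its difference in the second table was also -0.45, so the tables gave nearly the same size. Exons of *fbxa-99* overlap those of *oac-20* on the other strand, and the sources used here do not say whether the counting used strand. *fbxa-74* had 6.76, 3.48, and 2.88 FPKM in T1, T2, and T3 and 8.07, 4.17, and 7.96 FPKM in C1, C2, and C3 (log2 difference -0.55 ± 0.26, SE). *fbxa-79* had 5.90, 2.38, and 2.48 FPKM in T1, T2, and T3 and 6.30, 3.57, and 5.72 FPKM in C1, C2, and C3 (log2 difference -0.49 ± 0.24, SE). In both of these genes C3 was the highest library of its table, and without C3 their differences were -0.27 each. *fbxa-11*, at -0.37, *fbxa-65*, at -0.33, and *fbxa-167*, at -0.22, had differences of -0.29, -0.21, and -0.24 without C3. For *fbxc-2*, with a fitted difference of -0.51, the value without C3 was -0.12. Unadjusted p from limma over the 8 genes was between 0.0519 and 0.250.

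The 2 tables often disagreed on direction. T1 was below C1 in 115 F-box genes and above it in 61, with a median of -0.12, and the mean of T2 and T3 was above that of C2 and C3 in 94 and below it in 82, with a median of 0.01. Over all 14191 genes tested, T1 was below C1 in 6922 and above it in 7269. In the second table, 7712 of them were higher and 6479 lower. The direction was opposite between the tables in 107 of 176 F-box genes and in 7525 of the 14191 genes tested. In the fbxb family the direction was opposite between the tables in 36 of 48 genes. T1 was below C1 in 39 of 48 fbxb genes, and the second table had 41 of 48 higher in VK2-treated worms. In that table all 48 had their lowest level in C3, where 6957 of the 14191 genes tested did. In 32 of the 48 both T2 and T3 lay above C3 and below C2. That count over all genes tested is not given, but C2 was the highest library of that table in 5494 of the 14191. Without C3, 44 of 48 fbxb genes were lower under VK2 (median -0.24), and without C2, 47 of 48 were higher (median 0.31). In the fbxc family, 23 of 28 were lower without C3 and 20 of 28 higher without C2. Over all genes tested, 8237 were lower and 5954 higher without C3, and 8649 higher and 5542 lower without C2. All genes tested thus turned the same way, in a smaller share. The direction of the fbxb family thus depended on which control library was left out.

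**Figure D3:**
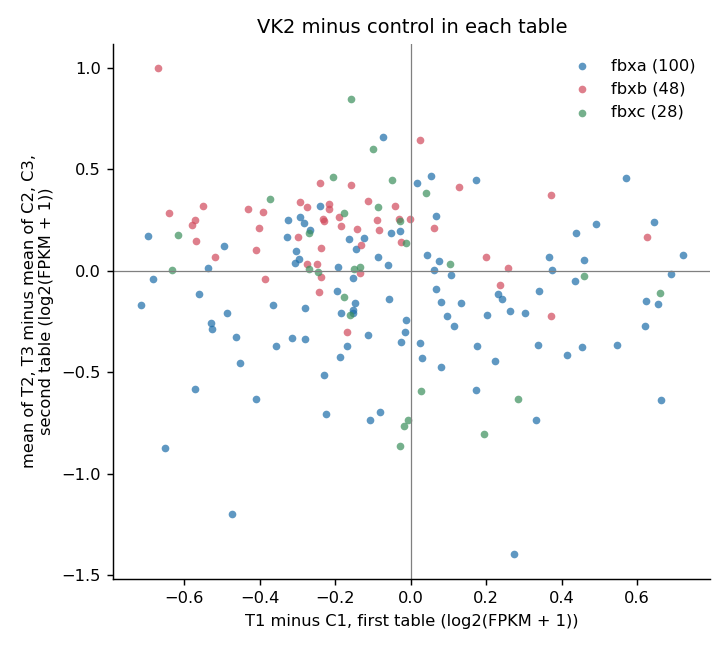
Difference of VK2 minus control for each tested F-box gene, in the first table (x axis, T1 minus C1) and in the second (y axis, mean of T2 and T3 minus mean of C2 and C3), both on log2(FPKM + 1). Most fbxb genes (red) lie in the upper left, with 39 of 48 below 0 on the x axis and 41 of 48 above 0 on the y axis.

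The F-box genes differed more between the 2 controls of the second table than between its 2 VK2 libraries. Over the F-box genes, the log2 difference had an SD of 0.314 between T2 and T3 and of 0.993 between C2 and C3. C3 was at least 1.5 times above each of T2, T3, and C2 in 29 F-box genes (16.5%), where 6.86% of all genes tested were, and at least 1.5 times below each in 32 (18.2%), where 9.84% were. Of the 29, 23 were fbxa and 6 were fbxc genes, and of the 32, 20 were fbxb, 10 were fbxc, and 2 were fbxa genes. Of the 29 high in C3, 7 passed the level of 1 FPKM only because of C3. Over the 224 genes in both tables with no level required, 31 were above and 33 below. All 11 members that only the second table listed had a lower mean in VK2-treated than in control worms, and 7 of them were high in C3 by the same measure. These 11 had medians of 0.190, 0.233, and 0.297 FPKM in T2, T3, and C2 and 1.41 FPKM in C3. The sources used here do not say what level a gene needed to be listed. Their listing may rest on C3, so these counts are no separate result. With a pseudocount of 5 in place of 1, 15 (8.52%) were above, where 4.21% of all genes were, and 3 (1.7%) below, where 4.47% were. With quantile normalization within the table, 32 (18.2%) were above, where 8.36% of all genes were, and 14 (7.95%) below, where 7.49% were, so the larger share of low members depended on the scale and the normalization.

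The fbxb genes summed to 43.6 and 57.1 FPKM in T2 and T3 and to 72.4 and 12.7 FPKM in C2 and C3, so that C3 held 17.6% of the sum in C2. Of the 48, 46 were under 1 FPKM in C3, against 33 in T2, 20 in T3, and 10 in C2, and 7 were listed at 0 in C3. All 48 were above 1 FPKM in T1 and C1. Since the filter used a mean over both tables, low levels in the second table did not keep these genes out. *fbxb-41*, named after its values were seen, as the fbxb gene that was farthest down in C3, had 5.95, 2.53, and 3.324 FPKM in T1, T2, and T3 and 7.52, 5.43, and 0.483 FPKM in C1, C2, and C3. *fbxc-51*, chosen in the same way among fbxc genes, had 22.2, 9.80, and 10.5 FPKM in T1, T2, and T3 and 24.9, 14.2, and 1.55 FPKM in C1, C2, and C3. In both genes the order was C2, T3, T2, and C3 from high to low. The fbxa genes summed to 360.3 and 332.3 FPKM in T2 and T3 and to 332.8 and 495.6 FPKM in C2 and C3, which put C3 at 149% of C2. The fbxc genes summed to 87.9 and 97.1 FPKM in T2 and T3 and to 111.9 and 96.4 FPKM in C2 and C3.

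First-table levels of the same genes do not include C3. Of the 32 members low in C3, 29 had T1 below C1, with a median difference of -0.18, and of the 1396 tested genes of any kind that were low in C3, 836 had T1 below C1, with a median of -0.08. Of the 29 members high in C3, 17 had T1 below C1, with a median difference of -0.03, and of the 973 such genes of any kind, 495 did, with a median of -0.01. T1 was also below C1 in 69 of the 115 members that were neither high nor low in C3. By family, T1 was below C1 in 39 of 48 fbxb and 21 of 28 fbxc genes, and these families hold most of the 32. Family and the side in C3 thus overlap in these counts. These values describe single libraries and were not tested.

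Neighbouring members tended to lie on the same side in C3. Counting the annotation as well as the files, there were 330 members, of which 214 lay in 32 groups of at least 3 with no more than 20 kb between neighbours. The C3 to other libraries difference of a tested member and that of its tested neighbour within 20 kb had a Pearson's r of 0.72 over 83 pairs, and 72 pairs lay on the same side. The same r for the fitted VK2 difference was 0.354. These are descriptions, since neighbours are often similar in sequence and all values come from the same libraries. Neighbours are also often of 1 family, and all 48 fbxb genes were lowest in C3. The r of 0.72 and the 72 pairs thus partly restate the difference between families. No value within a family or for neighbours among all genes is given. Of the 16 groups with at least 3 tested members, 9 had every tested member lower in C3, 3 had every one higher, and 4 had both. Most of the 9 hold mainly fbxb genes. The fbxa group at chrII:1609252-1621280 (WBcel235, Ensembl 115 gene bounds) holds *fbxa-163*, *fbxa-164*, *fbxa-165*, *fbxa-166*, and *fbxa-158*, and all 5 were higher in C3, by 0.83 to 3.82 on the log2 scale. All of these but *fbxa-163* reached a mean of 1 FPKM only because of C3, so for these 4 a high value in C3 follows from the filter. The fbxc group at chrIV:891239-911196 holds *fbxc-1*, *fbxc-2*, *fbxc-4*, *fbxc-5*, *fbxc-3*, and *fbxc-8*, and all 6 tested were higher in C3, by 0.92 to 1.46. The other large fbxc group, at chrII:907448-1001451, went the other way, with all 11 tested members lower in C3, at differences of -1.22 to -0.17. On chromosome III, 16 of 19 tested members of the largest group, at chrIII:1236015-1349450, were higher in C3, and of these *fbxa-30* reached a mean of 1 FPKM only because of C3.

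**Figure D4:**
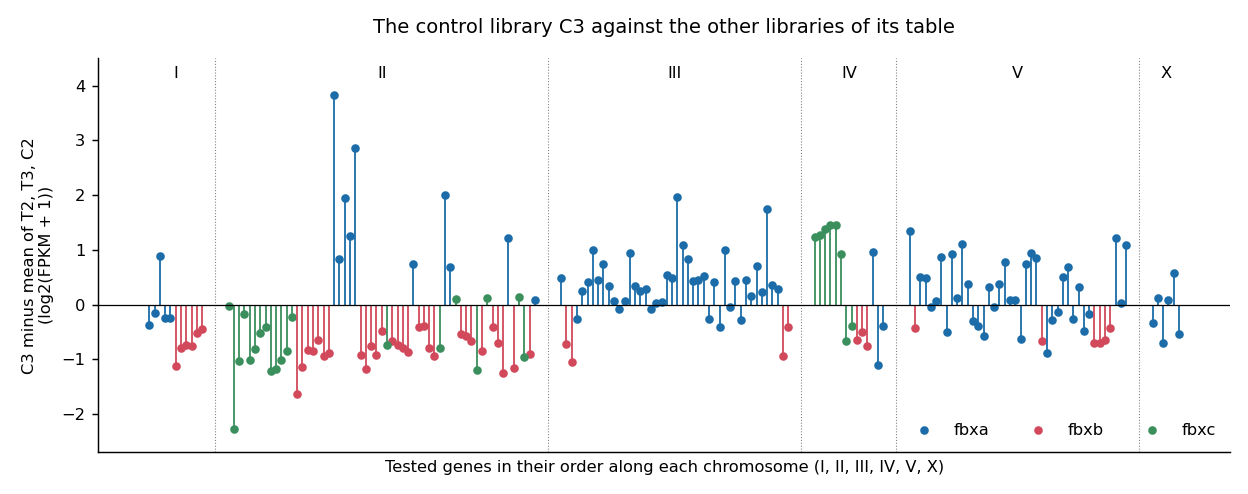
Difference of the control library C3 from the mean of T2, T3, and C2 on log2(FPKM + 1) (y axis) for each tested F-box gene, in its order along each chromosome (x axis, with the chromosome named above), coloured by family. The 48 fbxb genes (red) all lie below 0, and the group of 6 fbxc genes on chromosome IV (green) lies at 0.92 to 1.46.

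Some of these values come from copies that reads may not tell apart. Ensembl 115 gives the symbol *fbxc-4* to the genes the files call *fbxc-2* and *fbxc-3*, *fbxc-5* to *fbxc-1*, and *fbxc-8* to *fbxc-10* and *fbxc-11*, all on chromosome IV. The sources used here do not say how reads that match several of them were shared out, so the 6 genes of that group may not be 6 separate measurements. Exons of 46 of the 278 members overlap those of another gene.

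No gene of the other parts of the ligase passed the test either. Among 19 cullins, RING partners, and their regulators, 0 had an unadjusted p below 0.05 in limma, 13 had a higher fitted difference in VK2-treated worms and 6 a lower one, and the median was 0.04. Without C3, 2 were higher and 17 lower, with a median of -0.10 and 1 at such a p, where 7.21% of all genes tested had one. The largest differences were those of *rcs-1*, which the files call C28G1.5, *cul-6*, and *ned-8*, the gene of a ubiquitin-like protein that activates cullins. *rcs-1* had 12.8, 13.6, and 16.04 FPKM in T1, T2, and T3 and 18.7, 13.4, and 36.8 FPKM in C1, C2, and C3 (log2 difference -0.55 ± 0.34, SE). *cul-6* had 2.22, 2.095, and 1.44 FPKM in T1, T2, and T3 and 1.25, 2.00, and 7.65 FPKM in C1, C2, and C3 (log2 difference -0.42 ± 0.46, SE). Both were highest in C3 among the libraries of the second table, and without C3 the differences were -0.15 for *rcs-1* and 0.15 for *cul-6*. *ned-8* had 149, 28.5, and 30.3 FPKM in T1, T2, and T3 and 221, 34.5, and 31.8 FPKM in C1, C2, and C3 (log2 difference -0.30 ± 0.15, SE), with both groups apart in each table. *cul-1*, the cullin of the general SCF ligase, had 67.9, 26.4, and 25.3 FPKM in T1, T2, and T3 and 66.3, 29.0, and 22.3 FPKM in C1, C2, and C3 (log2 difference 0.03 ± 0.16, SE).

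Among the 19 tested Skp1-related adaptors, 0 had an unadjusted p below 0.05 in limma and the median difference was 0.07. Without C3 the median was -0.25, and 4 had such a p, where 7.21% of all genes tested did, at a median of -0.04. The 3 largest differences were -0.74 ± 0.53 (SE) for *skr-5*, -0.62 ± 0.32 (SE) for *skr-3*, and 0.45 ± 0.48 (SE) for *skr-13*. *skr-5*, an adaptor of CUL-6, had 17.1, 6.99, and 5.42 FPKM in T1, T2, and T3 and 19.8, 5.69, and 29.8 FPKM in C1, C2, and C3. *skr-3*, another, had 43.97, 35.2, and 33.5 FPKM in T1, T2, and T3 and 71.7, 32.4, and 82.8 FPKM in C1, C2, and C3. *skr-13* had 12.1, 5.74, and 6.19 FPKM in T1, T2, and T3 and 12.97, 7.27, and 1.16 FPKM in C1, C2, and C3. Without C3 the differences were -0.03 for *skr-5*, -0.25 for *skr-3*, and -0.18 for *skr-13*. Like the F-box genes, some adaptors were high and others low in C3. At least 1.5 times above T2, T3, and C2 were 3 of the 19, where 6.86% of all genes tested were. As far below were 10, where 9.84% were. *skr-3*, *skr-4*, and *skr-5* together were at 55.1 and 53.8 FPKM in T2 and T3 and at 49.7 and 145.5 FPKM in C2 and C3. The 8 tested genes from *skr-7* to *skr-15* were all lowest in C3 and together were at 40.2 and 51.9 FPKM in T2 and T3 and at 66.5 and 10.5 FPKM in C2 and C3, and this grouping was chosen after the values were seen.

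Other genes of the same systems were counted alongside. Of 11 other F-box protein genes, such as *lin-23*, *sel-10*, and *fog-2*, 10 had a higher and 1 a lower fitted difference, between -0.09 and 0.24, and 0 had an unadjusted p below 0.05 in limma. Without C3, 3 were higher and 8 lower. The largest differences were 0.24 for *fbxl-1*, 0.20 for *prom-1*, and 0.15 for *fsn-1*, and without C3 they were 0.31, -0.07, and -0.18. Also counted were 64 tested genes of MATH and BTB proteins, those with symbols starting with bath-, math-, or btb-. Of these, 3 had an unadjusted p below 0.05 in limma, where 3.57% of all genes tested did. An adjusted p below 0.05 in limma was found for 0, with a smallest of 0.9996. The largest differences were -0.77 ± 0.37 (SE) for *math-14*, 0.66 ± 0.20 (SE) for *btb-17*, and 0.64 ± 0.34 (SE) for *math-38*. Without C3 they were -0.31 for *math-14*, 0.50 for *btb-17*, and 0.25 for *math-38*, and the 64 genes turned to 24 higher and 40 lower, against 40 higher and 24 lower with it. *btb-17* had 8.59, 6.38, and 6.52 FPKM in T1, T2, and T3 and 5.99, 4.16, and 2.74 FPKM in C1, C2, and C3, with no overlap within either table, and an unadjusted p of 0.0138 from limma.

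The pals genes are the marker family of the intracellular pathogen response. Of 24 tested, 0 had an unadjusted p below 0.05 in limma, where 3.57% of all genes tested did. In VK2-treated worms, 19 had a lower and 5 a higher fitted difference, with a median of -0.38. By 1.5 times, 6 were lower, where 1.68% of all genes tested were. Without C3, 21 were higher and 3 lower, with a median of 0.18 and 0 lower by 1.5 times. An unadjusted p below 0.05 in limma was then found for 2, where 7.21% of all genes tested had one. C3 was at least 1.5 times above T2, T3, and C2 in 15 of the 24, where 6.86% of all genes tested were. Their summed level was 116.5 and 89.1 FPKM in T2 and T3, and 81.4 and 327.7 FPKM in C2 and C3, while in the first table it was 138.5 FPKM in T1 and 144.2 FPKM in C1. The largest differences were -1.59 ± 0.80 (SE) for *pals-4*, -1.07 ± 0.91 (SE) for *pals-5*, and -0.98 ± 0.87 (SE) for *pals-3*. *pals-5*, whose promoter is the usual reporter of this response, had 0.237, 0.629, and 0.352 FPKM in T1, T2, and T3 and 0.611 FPKM in C1, was listed at 0 in C2, and had 14.6 FPKM in C3. Without C3 the differences were -0.51 for *pals-4*, 0.16 for *pals-5*, and 0.22 for *pals-3*. For *pals-5*, as for *fbxa-75* and *fbxa-158*, C3 alone was high. In *pals-3*, *pals-5*, and *pals-11*, every library but C3 was under 1 FPKM. These genes reached a mean of 1 FPKM only because of C3. Their high value in C3 and their place among the 15 thus follow from the filter.

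Some cell type markers, but not all, moved with the fbxb genes in the second table. As a share of C2, oocyte markers were at 77.3% in T2, 79.8% in T3, and 33.9% in C3, and fbxb genes were at 60.2% in T2, 78.8% in T3, and 17.6% in C3. The order of the libraries was the same in both. The fbxc genes were at 78.6% of C2 in T2, 86.8% in T3, and 86.2% in C3. The fbxa genes were at 108% in T2, 99.9% in T3, and 149% in C3, so neither of these families had that order. Germ line markers were at 89.5% of C2 in T2, 81.8% in T3, and 63.3% in C3, with 5 of 10 at least 1.5 times lower in C3 than in the other libraries. Sperm markers were at 112% of C2 in T2, 110% in T3, and 60.0% in C3, with 3 of 9 as low. Epidermis markers were at 85.5% in T2, 98.7% in T3, and 135% in C3, with 4 of 10 at least 1.5 times higher. Intestine markers were at 81.2% in T2, 98.2% in T3, and 106% in C3. Body wall muscle markers were at 82.4% in T2, 93.6% in T3, and 93.8% in C3, and neuron markers at 101% in T2, 104% in T3, and 118% in C3. In the first table, T1 held 97.0% of the oocyte markers of C1, 85.7% of its fbxb genes, and 89.6% of its fbxa genes, along with 219% of its sperm, 124% of its intestine, 119% of its body wall muscle, 110% of its epidermis, 105% of its germ line, and 99.4% of its neuron markers. The part of these markers in the F-box values was not tested.

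**Figure D5:**
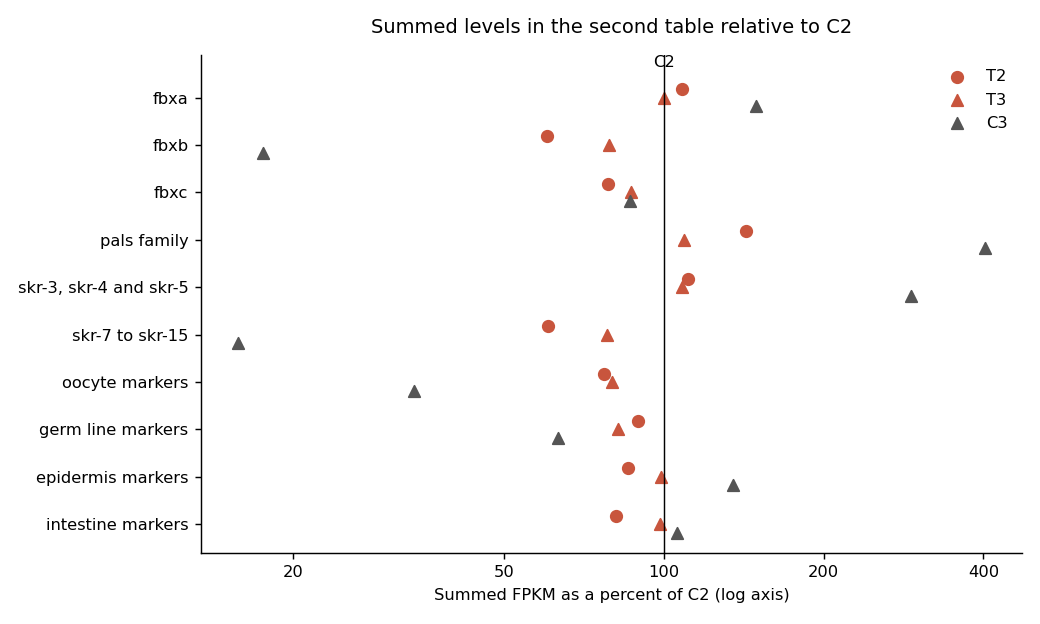
Summed FPKM of gene groups in T2 and T3 (red circles and triangles) and C3 (grey triangles) as a percent of the sum in C2 (x axis, log scale, black line at C2), with a row for each group. In C3 the fbxb genes are at 17.6% and the genes from *skr-7* to *skr-15* at 15.8% of C2, and the pals family is at 403%.

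The members not tested are given by their range. The 48 under the mean level of 1 FPKM ran from listed at 0 to 2.31 FPKM, the highest for *fbxb-60* in C1, and 17 had a higher and 31 a lower mean difference in VK2-treated worms. Their median FPKM was 1.10, 0.455, and 0.604 in T1, T2, and T3 and 1.31, 0.698, and 0.275 in C1, C2, and C3. The 43 listed only in the first table had a median of 0.766 FPKM in T1 and 0.893 FPKM in C1, and T1 was above C1 in 19 and below it in 24. The 11 listed only in the second table had a median of 0.190 and 0.233 FPKM in T2 and T3 and 0.297 and 1.41 FPKM in C2 and C3. *fbxa-7*, 1 of the 11, had 0.420 and 0.317 FPKM in T2 and T3 and 0.129 and 2.66 FPKM in C2 and C3, and was named after its values were seen.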

How the data were processed

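Paired-end RNA-seq was made from 3 libraries of VK2-treated and 3 of control N2 worms. Per the labels, libraries were stranded, and the authors aligned reads to WBcel235 and used Ballgown to calculate FPKM per transcript, deposited in 2 tables. The submitters' processing notes also name HISAT2 2.1.0, STAR 2.5.2b, StringTie, and cutadapt. The sources used here do not give the number of reads. Low FPKM times length did not fall on whole multiples of a step (concentration 0.0749 to 0.149, against 1 for whole fragments), so the depth is unknown and no interval is given.

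FPKM was summed per gene, and of the 15207 genes that both tables list, the 14191 averaging 1 FPKM or more were tested in R 4.3.3 with limma 3.58.1 (two-sided, with intensity trend and without robust estimation). The model on log2(FPKM + 1) held the group and the table. The script was tested on simulated data with noise of 1 size in every library and none set apart as C3 was. That test thus does not show how well a change could be found in these libraries. "Lower" and "higher by 1.5 times" use the fitted difference on this scale. Positions came from Ensembl 115, and descriptions from Python 3.11.15, numpy 2.4.6, and pandas 2.3.3. Single genes named are the 8 largest rises and 8 largest falls among members separated in both tables, the 6 highest, *fbxa-75* and *fbxa-158*, and the 3 smallest p, with 3 genes of each partner list. Members and lists were chosen with earlier results of these data known. Alternatives were the pseudocount, filter, scaling, table term, replicate block, second table alone, highest transcript, robust fit, and each library left out. No sequences are shown.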

Additional observations from a re-analysis of the deposited data

How the results depend on the processing

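No alternative gave an F-box gene at an adjusted p below 0.05 in limma. The number of F-box genes higher by 1.5 times, 0 in the report, was 14 with a pseudocount of 0.1 and 5 in the second table alone, and 0 to 7 with a library left out. The number lower by 1.5 times, 4 in the report, was 14 with a pseudocount of 0.1, 1 with a pseudocount of 5, 9 with quantile normalization, and 15 in the second table alone, and 2 to 22 with a library left out. Of all 14191 genes tested, 473 were higher and 238 lower by 1.5 times in the report. These counts were 487 and 498 in the second table alone, and 367 and 319 with quantile normalization. Without C2, which gave the 22, 4.73% of all genes were lower. The number at an unadjusted p below 0.05 in limma, 0 in the report, was 2 with no filter, 2 with quantile normalization, 1 in the second table alone, and 1 with the highest transcript per gene, and 0 to 14 with a library left out. Of all genes tested, 3.57% had such a p in the report, 1.4% in the second table alone, and 3.78% with quantile normalization. Without C2, which gave the 14, 11.2% did. No share of all genes is given for the changed pseudocounts, no filter, or the highest transcript. The median difference, -0.02, was 0.0613 with a pseudocount of 0.1, -0.0838 with a mean FPKM of at least 5, and -0.13 with quantile normalization, and -0.0918 to 0.081 with a library left out. The cause was not tested. With T1 or C1 left out, only the second table was left.

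C3 was set against T2, T3, and C2 under alternatives chosen after seeing the data, where the report has 29 above and 32 below. With a pseudocount of 5, 15 genes (8.52%) were above, where 4.21% of all genes were, and 3 (1.7%) below, where 4.47% were. With a pseudocount of 0.1, 64 (36.4%) were below, where 13.8% of all genes were. With quantile normalization 14 (7.95%) were below, where 7.49% were, and with upper quartile scaling 29 (16.5%), where 6.58% were.

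The table term, the replicate block, the robust fit, and the crossed pairs leave every fitted difference as it is, and the second table alone is the same fit as leaving out T1 or C1, so these say little about direction. Among the 23 named tested genes, 6 changed sign under some alternative. *fbxa-101* had -0.0227 with a pseudocount of 5 and -0.37 with the highest transcript, *fbxa-13* had -0.13 with the highest transcript, and leaving out a library gave -0.102 to 0.165 for *fbxa-101*, -0.101 to 0.267 for *fbxa-210*, -0.304 to 0.462 for *fbxa-215*, -0.63 to 0.166 for *fbxa-24*, and -0.27 to 0.353 for *fbxc-44*.

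Same-numbered libraries were not taken as pairs, although the deposit names T2 together with C2 and T3 with C3. Across genes, C2 minus C3 and T2 minus T3 had a Pearson's r of -0.111. C3 stood apart (SD 0.695 for C2 minus C3, 0.292 for T2 minus T3), so this r cannot show whether the libraries were paired. With the replicate block the counts were 0 higher, 4 lower, and 0 at an unadjusted p below 0.05, and with T2 paired to C3 and T3 to C2, chosen after seeing the data, they were 0, 4, and 2. The unknown depth limits all low values, and most F-box genes are low.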
